A study of Mus musculus with 8 samples.

Results

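RAB, SNX and VPS genes, which encode much of the machinery that moves membrane and cargo through endosomes, were followed in mouse bone marrow-derived macrophages given lipopolysaccharide (LPS, a component of the bacterial outer membrane). Members were chosen by symbol alone: a platform annotation symbol that starts with Rab and a digit (leaving out symbols with "ip" or "fip", which name interacting proteins), with Snx and a digit, or with Vps and a digit. This gave 103 of 12394 genes on the array, 54 with RAB, 21 with SNX and 28 with VPS symbols. There were 8 groups with 1 Affymetrix array apiece. Wild-type C57BL/6 cells were unstimulated, given LPS at 1 µg/ml for 6 h or 24 h, or given that LPS with EGTA, a chelator of extracellular calcium, for 6 h or 24 h. The label of the 24 h EGTA sample gives its concentration as 2 mM, and that of the 6 h sample gives none. Cd14-/- C57BL/6 cells, in which the co-receptor that passes LPS on to TLR4 is missing, were unstimulated or given LPS at 1 µg/ml for 6 h or 24 h. All cells came from mice 6 to 8 weeks old, and all were grown for 7 days in serum and M-CSF before plating. No array held EGTA without LPS or EGTA in CD14-deficient cells, and the labels do not say how many animals gave each culture. With 1 array per group, a difference between a pair of arrays has no replicate check and carries no p-value.

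RAB proteins are small GTPases, each found on particular membranes, that recruit the tethers and motors of vesicle traffic while bound to GTP. Sorting nexins bind phosphoinositide lipids on endosomes through a PX domain, and those with a BAR domain also bend the membrane into tubules. VPS genes were named after yeast mutants that missort vacuolar proteins, and they encode subunits of retromer, of the HOPS, CORVET and GARP tethers, and of the ESCRT machinery that sorts ubiquitinated cargo into multivesicular bodies. In macrophages this traffic carries TLR4 between the surface, endosomes and lysosomes and matures the phagosome. A few members fit the symbol rule without being such genes. Rab3il1 encodes an exchange factor, Rab3gap2 a subunit of a regulator of RAB3 and RAB18, Rab26os a transcript from the strand opposite Rab26, Rab5if a RAB5 interacting factor, and Vps72 a subunit of chromatin remodelling complexes.

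Values below are quantile-normalized intensities, and values under 38.4, the 40th percentile of all values, were raised to that floor. Where a gene had several probe sets, the one brightest on average stood for it. A gene was compared between a pair of arrays where the brighter one exceeded the median of all values, 88.2, and differences are given as folds or on the log2 scale. Of the 103 members, 78 exceeded 88.2 on all 8 arrays, 8 on 1 to 7 arrays and 17 on none. The 17 were 13 RAB, 2 SNX and 2 VPS genes, and 12 of them were at the floor on every array. Those 12 included Rab27a, which carries secretory granules and lysosome-related organelles to the surface. Of 7 exocytosis RABs, Rab3d alone was compared. Intensities of different probe sets were not set against each other.

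Facts of all arrays bear on these values as follows. Cd14 was at the floor on the 3 arrays labelled CD14-deficient and between 3849 and 12515 on the 5 wild-type arrays. All 8 macrophage markers examined were above 88.2 on at least 1 array, with summed intensities from 53417 to 67772, while the summed markers of T cells stayed at 136 or less, of neutrophils and their precursors at 107 or less and of fibroblasts at 241 or less. All 4 B cell and all 4 dendritic cell markers were at the floor on every array. The fibroblast sum of 241 was that of wild-type cells at 24 h of LPS, and its part in the results was not tested. The arrays' deposited trimmed means ran from 314 to 527, and the median log2 difference over all genes moved with scaling, from between -0.13 and 0.02 after quantile normalization to between -0.78 and 0.43 as deposited. Where scaling altered the split of members into higher and lower, both splits are given.

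In wild-type cells, LPS for 6 h was accompanied by higher Rab38, Rab12, Vps54, Snx10, Vps37b, Rab9 and Rab22a and by lower Rab3il1, Rab40c, Rab7b, Snx5 and Rab5c. A 2-fold or larger increase was seen in 7 of 85 members (8.24%) and a decrease of that size in 5 (5.88%). Over all genes compared, 10.5% were higher and 9.5% lower. The median log2 difference of the members was -0.08, beside -0.12 for all genes, and 49 members lay within 0.5 of 0. With the arrays scaled to equal medians 11 members were higher and 2 lower, beside 12.2% and 7.89% of all genes. At 24 h, 8 of 85 (9.41%) were higher and 5 (5.88%) lower, beside 10.6% and 10.7% of all genes, with medians of -0.03 and -0.07. That split was 3 and 12 with intensities as deposited, beside 5.17% and 31.1% of all genes. With equal medians it was 15 and 5, beside 13.5% and 8.69%.

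CD14-deficient cells, set against their own 0 h array, gave similar counts. At 6 h, 7 of 85 members (8.24%) were at least 2-fold higher and 6 (7.06%) lower, beside 10.3% and 8.99% of all genes. At 24 h, 6 of 86 (6.98%) were higher and 2 (2.33%) lower, beside 8.29% and 8.77%. As deposited these splits were 6 and 9 at 6 h, beside 6.89% and 19.7% of all genes, and 4 and 4 at 24 h, beside 6.58% and 11.6%. With equal medians the 24 h split was 7 and 2, beside 9.24% and 7.17% of all genes. The genotypes' responses have no array in common. Rab12, Rab38, Snx10 and Vps54 were at least 2-fold higher at 6 h in both genotypes, which is 57.1% of the 7 members of either list. Over all genes the higher lists shared 66.2% of the wild-type and 67.4% of the CD14-deficient genes. Rab3il1, Rab40c, Rab7b and Snx5 were at least 2-fold lower in both, 80.0% of the wild-type list and 66.7% of the CD14-deficient one, beside 52.4% and 55.4% over all genes. At 24 h, Rab20, Snx10, Snx20 and Vps37b were higher in both and Rab3gap2 lower in both. The higher ones were 50% of the wild-type list and 66.7% of the CD14-deficient one, beside 52.7% and 68.1% over all genes. Rab3gap2 was 20% and 50% of the lower lists, beside 41.9% and 51.3% over all genes. Across the 85 members compared in both genotypes, the log2 responses correlated with Pearson's r of 0.82 at 6 h and 0.81 at 24 h (Spearman's rho 0.78 and 0.76). Over all genes compared in both, r was 0.80 and 0.75, and whether the members differ from genes at large was not tested. The points share their arrays and normalization, so this describes these 4 pairs of arrays only.

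**Figure D1:**
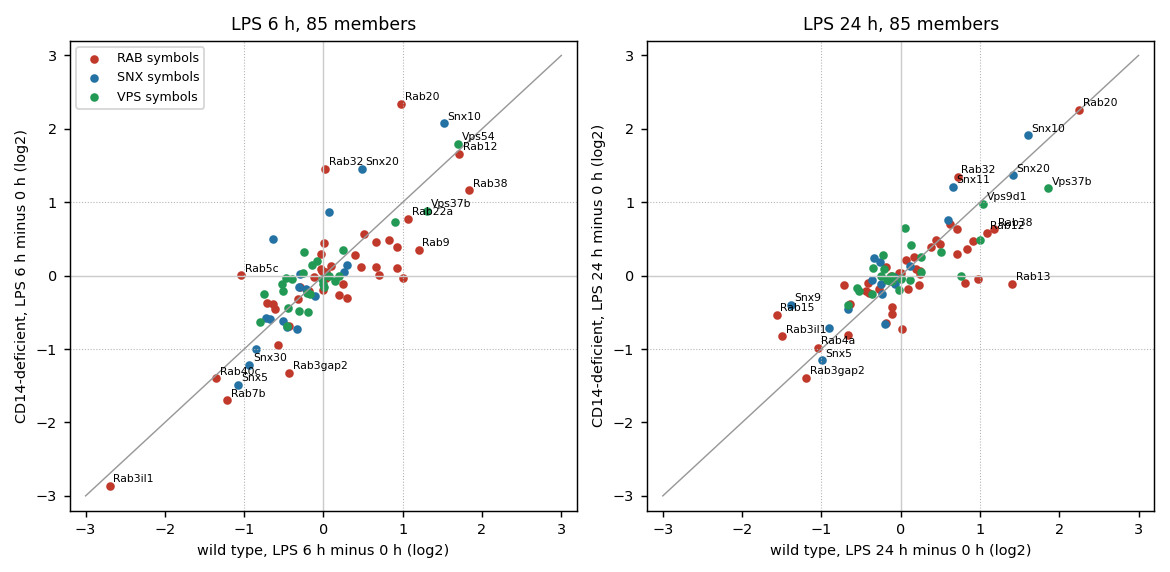
Log2 difference of LPS 6 h (left) or 24 h (right) from 0 h in wild-type (x axis) and CD14-deficient macrophages (y axis). Each point is 1 of 85 members, coloured by symbol family, dotted lines mark 2-fold, the diagonal marks equal responses, and members at least 2-fold different in either genotype are named; Snx10 and Rab3il1 lie at opposite ends of the diagonal at 6 h, while Rab32 and Rab20 lie above it and Rab13 lies below it at 24 h.

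The LPS effects averaged over genotypes were tested by an additive model of time and condition over the 8 arrays. The model was fitted with limma, with Benjamini-Hochberg adjustment over 7292 genes and a threshold of 0.05. With no EGTA array at 0 h, the EGTA arrays entered only through their difference between 24 h and 6 h and through the residual. The residual of the model measures departure from additivity across times, not the spread between cultures. At 6 h, 13 of 86 members tested rose and 13 fell, beside 12.5% and 15% of all genes. At 24 h, 13 rose and 9 fell, beside 12.5% and 14.2%. With the 6 arrays without EGTA, Rab12, Rab38, Snx10, Vps37b and Vps54 rose and Rab3il1, Rab40c, Rab7b, Snx5, Snx15 and Vps26c fell at 6 h, 5 and 6 members, beside 7.8% and 7.47% of all genes. At 24 h in that fit Rab20, Snx10, Vps37b and Vps9d1 rose and Rab3gap2, Rab4a, Snx5 and Snx14 fell, 4 each beside 6.38% and 6.32%, so the other calls named below rest on the EGTA arrays too. As deposited, 5 rose and 9 fell at 6 h, beside 6.9% and 17% of all genes, and 5 rose and 8 fell at 24 h, beside 6.31% and 15.4%. The 5 that rose were Rab12, Rab20, Rab38, Snx10 and Vps54 at 6 h and Rab20, Rab32, Snx10, Snx20 and Vps37b at 24 h, so the other increases named below did not pass as deposited. With equal medians the counts were 14 and 7 at 6 h, beside 15.3% and 9.89%, and 19 and 6 at 24 h, beside 16.5% and 9.56%.

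Among sorting nexins, Snx10, which acts in endosome and lysosome homeostasis and is needed in osteoclasts for acid secretion, had intensities of 1871, 5365 and 5675 in wild-type cells at 0, 6 and 24 h. In CD14-deficient cells these were 1282, 5398 and 4816, and with EGTA 6168 and 6260 at 6 and 24 h. The unstimulated arrays were low and all 6 LPS arrays high, with no overlap. Snx10 was 2.87-fold and 3.03-fold higher at 6 and 24 h in wild type and 4.21-fold and 3.76-fold higher in CD14-deficient cells. Its additive effects were 1.79 ± 0.17 (SE) at 6 h and 1.77 ± 0.17 at 24 h (limma adjusted p = 0.0026 and 0.0031). Snx20, which binds the leukocyte adhesion ligand PSGL-1, stood at 437, 611 and 1163 in wild type and at 295, 810 and 760 in CD14-deficient cells. It was thus 2.66-fold higher at 24 h in wild type (log2 0.87 as deposited), and in CD14-deficient cells 2.75-fold higher at 6 h and 2.58-fold at 24 h. Its 24 h effect passed the fit (1.49 ± 0.29, limma adjusted p = 0.018). Snx11, a small PX-only sorting nexin, was 2.31-fold higher at 24 h in CD14-deficient cells, from 90.5 to 209 (log2 0.92 as deposited). In wild type it went from 131 to 206 (log2 0.65), and it rose in the fit at 24 h (0.95 ± 0.21, limma adjusted p = 0.024).

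Most sorting nexins with BAR domains lay below 0 with LPS, as did the median of all genes. Of 8 compared in wild type, 7 were below 0 at 6 h and 7 at 24 h, with medians of -0.40 and -0.24, beside -0.12 and -0.07 for all genes. In CD14-deficient cells 5 and 6 were, with medians of -0.49 and -0.18, beside -0.13 and -0.04. The share of all genes below 0 was not counted. With equal medians the member median over all 85 stood 0.09 above 0 at 6 h and 0.24 above it at 24 h, so small deviations below 0 depend on scaling. Snx5, a subunit of the coat that works with retromer to return cargo from endosomes to the Golgi, went from 6826 to 3237 and 3418 in wild type, from 8239 to 2933 and 3703 in CD14-deficient cells, and stood at 3201 and 3026 with EGTA. All 6 LPS arrays were below both unstimulated arrays. It was 2.11-fold lower at 6 h in wild type and 2.81-fold and 2.23-fold lower at 6 and 24 h in CD14-deficient cells, and at 24 h in wild type it lay just inside the 2-fold limit. The wild-type 6 h difference was -0.91 as deposited and -0.70 with equal medians, and the CD14-deficient 24 h one -0.82 with equal medians, all under 2-fold. Its 4 other probe sets lay between -1.65 and -1.11 for wild type at 6 h. The additive effects were -1.24 ± 0.17 and -1.12 ± 0.17 (limma adjusted p = 0.0054 and 0.0085). Snx1, its partner in the coat, fell at 6 h in the fit (-0.59 ± 0.16, limma adjusted p = 0.039), though not with equal medians, as deposited or without the EGTA arrays, whereas Snx2 stood at -0.10 in wild type and -0.28 in CD14-deficient cells.

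Snx9 couples dynamin and actin to endocytic buds. Its intensity was 1150, 936 and 441 in wild type, 1200, 1215 and 909 in CD14-deficient cells, and 890 and 321 with EGTA. The wild-type 24 h arrays with and without EGTA were both low. Snx9 was 2.61-fold lower at 24 h than at 0 h in wild type, against -0.40 on the log2 scale in CD14-deficient cells. It fell in the fit at 24 h (-1.01 ± 0.29, limma adjusted p = 0.048). That call was lost with equal medians, with a floor at the 20th percentile and without the EGTA arrays. The CD14 effect of Snx9 did not pass (0.49 ± 0.24, limma adjusted p = 0.33). Its relative Snx18 stood at 383, 247 and 579 in wild type and at 410, 577 and 697 in CD14-deficient cells, with the wild-type 6 h array and its EGTA counterpart, at 250, the 2 lowest. Snx30 was 2.32-fold lower at 6 h in CD14-deficient cells and stood at -0.93 in wild type.

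Among RABs of late endosomes, lysosomes and phagosomes, Rab20 had the widest span. Rab20 acts in phagosome maturation in macrophages. Its intensity was 230, 455 and 1094 in wild type at 0, 6 and 24 h, 189, 953 and 903 in CD14-deficient cells, and 719 and 1441 with EGTA. The unstimulated arrays were lowest in each genotype, and in CD14-deficient cells the 6 h array was slightly above the 24 h one. Rab20 was 4.75-fold higher at 24 h in wild type and 5.05-fold and 4.78-fold higher at 6 and 24 h in CD14-deficient cells, while wild type at 6 h lay just inside the limit at 0.98. It rose in the fit at both times (1.59 ± 0.34 and 2.32 ± 0.34, limma adjusted p = 0.023 and 0.0087).

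Rab32 and Rab38 are related RABs of lysosome-related organelles that also act at phagosomes holding bacteria, and they differed in course. Rab32 stood at 1989, 2017 and 3276 in wild type, at 1790, 4905 and 4563 in CD14-deficient cells and at 2146 and 3515 with EGTA. The CD14-deficient LPS arrays were the 2 highest of the 8. The LPS differences were 1.01-fold and 1.65-fold in wild type and 2.74-fold and 2.55-fold in CD14-deficient cells, and neither additive effect passed (limma adjusted p = 0.17 and 0.053). Rab38 stood at 66.2, 237 and 150 in wild type, at 61.6, 138 and 95.3 in CD14-deficient cells and at 258 and 171 with EGTA. It was thus highest at 6 h in each condition, 3.58-fold above 0 h in wild type and 2.24-fold in CD14-deficient cells. Its values are near the comparison level, so its folds are imprecise, and as deposited the CD14-deficient 6 h difference was 0.65. It rose in the fit at both times (limma adjusted p = 0.0046 and 0.022), with an effect of 0.91 ± 0.19 at 24 h.

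Rab7b and Rab9 moved in opposite ways at 6 h. Rab7b, which directs traffic from late endosomes and is known to favour the breakdown of TLR4, went from 4254 to 1835 and 3751 in wild type and from 4472 to 1377 and 2866 in CD14-deficient cells, with 1560 and 3011 under EGTA. All 3 arrays of 6 h were low and all 3 of 24 h intermediate. It was 2.32-fold and 3.25-fold lower at 6 h in the genotypes and fell in the fit at 6 h (-1.44 ± 0.17, limma adjusted p = 0.0039), and its other probe set gave -1.76 and -1.65. With equal medians the wild-type difference was -0.82. Rab9, which returns mannose 6-phosphate receptors from late endosomes to the Golgi, went from 1493 to 3433 and 1751 in wild type, with 3565 and 2244 under EGTA, and from 1604 to 2052 and 1472 in CD14-deficient cells. Its log2 differences at 6 h were 1.20 in wild type and 0.36 in CD14-deficient cells, and rose in the fit at 6 h (0.77 ± 0.21, limma adjusted p = 0.043). Rab7, the general RAB of late endosomes, stayed between -0.43 and -0.21 in the 4 LPS comparisons.

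**Figure D2:**
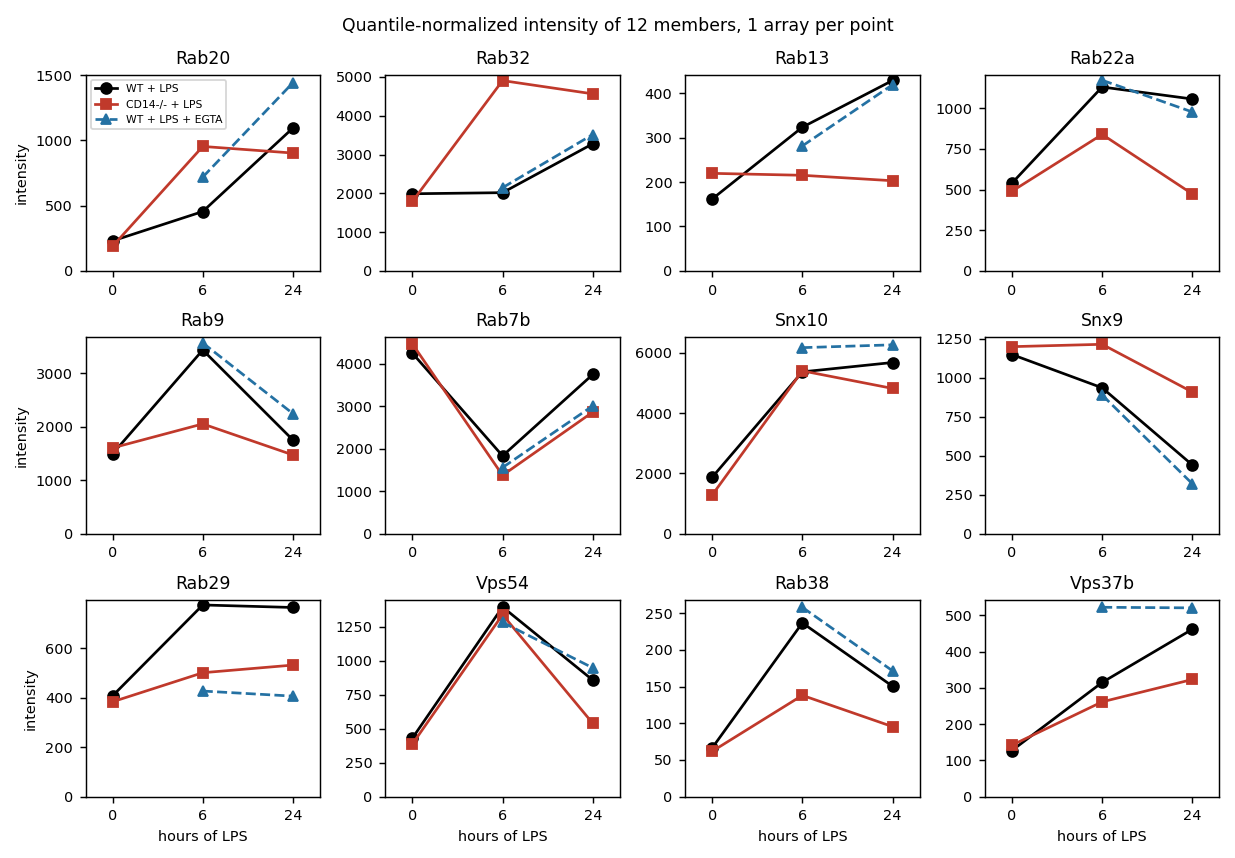
Quantile-normalized intensity (y axis, from 0) of 12 members by hours of LPS (x axis, categories), for wild type with LPS (black circles), CD14-deficient cells with LPS (red squares) and wild type with LPS and EGTA (blue triangles). Each point is 1 array with no error; Rab7b dips and Vps54 peaks at 6 h in all 3 conditions, Rab13 climbs in both wild-type conditions alone, and Rab29 with EGTA stays near its unstimulated 407.

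Among early endosome RABs, Rab5a, which drives early endosome fusion, stood at 2219, 3521 and 2547 in wild type, 2333, 3211 and 2487 in CD14-deficient cells and 3401 and 2717 with EGTA. The 3 arrays of 6 h were the 3 highest. The differences at 6 h were 1.59-fold and 1.38-fold, and Rab5a rose in the fit at 6 h (0.55 ± 0.14, limma adjusted p = 0.033). Its paralogue Rab5c went the other way at 6 h in wild type alone, from 1585 to 774 and back to 1661, with 1204 and 1454 under EGTA and 1145, 1148 and 1331 in CD14-deficient cells. The 2.05-fold difference at 6 h rests on that 1 array, and it was -0.78 on the log2 scale with equal medians and just under 2-fold as deposited. Rab5b, with 151, 199 and 248 in wild type, stayed under 2-fold.

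Rab22a and Rab21 sort clathrin-independent cargo and integrins. Rab22a went from 539 to 1129 and 1056 in wild type, with 1171 and 976 under EGTA, and from 489 to 838 and back to 473 in CD14-deficient cells, so that the 4 wild-type LPS arrays lay above all others. It was 2.09-fold higher at 6 h in wild type and rose in the fit at 6 h (0.89 ± 0.25, limma adjusted p = 0.045). Its other 2 probe sets gave 0.62 and 0.59 for that difference, and the mean of all its probe sets 0.76. Rab21 went from 1900 to 2711 and 3105 in wild type and from 1517 to 2257 and 2365 in CD14-deficient cells and rose in the fit at both times (0.56 ± 0.13 and 0.66 ± 0.13, limma adjusted p = 0.029 and 0.019).

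Among recycling RABs, Rab12, which steers the transferrin receptor towards degradation, went from 617 to 2025 and 1307 in wild type, from 592 to 1873 and 889 in CD14-deficient cells, and stood at 1926 and 1222 with EGTA. Arrays of 6 h were the 3 highest. It was 3.28-fold and 3.16-fold higher at 6 h in the genotypes and rose in the fit at both times (1.66 ± 0.17 and 0.87 ± 0.17, limma adjusted p = 0.0032 and 0.019). Rab13, which acts in recycling to cell junctions, stood at 162, 323 and 428 in wild type, 281 and 419 with EGTA, and 219, 215 and 203 in CD14-deficient cells. It was 2.65-fold higher at 24 h in wild type against a log2 difference of -0.11 in CD14-deficient cells, a gap of -1.52 that has no test with 1 array per group. As deposited the wild-type difference was 0.69, under 2-fold. The 24 h effect of Rab13 did not pass the fit (0.71 ± 0.34, limma adjusted p = 0.17). Rab10, which carries newly made TLR4 to the surface, rose at 24 h in the fit (0.63 ± 0.16, limma adjusted p = 0.038).

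Rab11a, which recycles receptors and brings TLR4 to phagosomes, went from 5900 to 3877 and 4886 in wild type and from 5500 to 4024 and 4846 in CD14-deficient cells, and fell at 6 h in the fit (-0.51 ± 0.13, limma adjusted p = 0.037). Rab14, of recycling endosomes and phagosomes, went from 6673 to 4067 and 4292 and from 7401 to 5726 and 5675 and also fell at 6 h (-0.55 ± 0.15, limma adjusted p = 0.039). With the 6 arrays without EGTA, and also with intensities as deposited or with equal medians, neither Rab11a nor Rab14 passed. Rab4a, of rapid recycling, was 2.06-fold lower at 24 h in wild type, from 181 to 87.6, and stood at -0.98 on the log2 scale in CD14-deficient cells. It fell in the fit at 24 h (-0.91 ± 0.19, limma adjusted p = 0.022). Rab15 was 2.96-fold lower at 24 h in wild type, from 233 to 78.7, with 86.5 under EGTA. In CD14-deficient cells it went from 164 at 0 h to 113 at 24 h.

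Of the members that act elsewhere, Rab3il1 had the largest LPS difference. It encodes a guanine nucleotide exchange factor of RAB proteins, and stood at 898, 139 and 319 in wild type, at 1191, 163 and 672 in CD14-deficient cells and at 166 and 257 with EGTA. All 6 LPS arrays lay below both unstimulated ones. It was 6.48-fold and 7.29-fold lower at 6 h in the genotypes and fell in the fit at both times (-2.62 ± 0.31 and -1.32 ± 0.31, limma adjusted p = 0.0040 and 0.030). One other probe set of Rab3il1 had the 6 h LPS arrays of both genotypes at the floor, which bounds its wild-type log2 difference at -2.65 or lower, and 3 further ones were at the floor throughout. With these averaged in, the 6 h log2 differences were -1.07 and -1.17 and the wild-type 24 h one -0.70. Rab40c, a RAB with a SOCS box that recruits ubiquitin ligase subunits, was 2.56-fold and 2.63-fold lower at 6 h and fell in the fit at 6 h (-1.40 ± 0.19, limma adjusted p = 0.0055). Rab3gap2 fell at 24 h (-1.14 ± 0.30, limma adjusted p = 0.039), with dim values between 57.8 and 199.

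VPS genes of retromer and of the HOPS and CORVET tethers were within 2-fold in all 9 comparisons. Retromer joins Vps35, Vps29 and a Vps26 subunit and recycles cargo out of endosomes. All 4 of its genes were below 0 in wild type at 6 h and at 24 h, with medians of -0.42 and -0.38. In CD14-deficient cells 3 of 4 were below 0 at each time, with medians of -0.25 and -0.13. The medians over all genes were themselves negative, at -0.12 and -0.07 in wild type and -0.13 and -0.04 in CD14-deficient cells. The share of all genes below 0 was not counted. Vps35 went from 5887 to 4316 and 3707 in wild type and from 6293 to 4616 and 4757 in CD14-deficient cells, and fell at 24 h in the fit (-0.53 ± 0.14, limma adjusted p = 0.043), though not with equal medians, as deposited or without the EGTA arrays. The 6 tether genes compared lay between -0.51 and 0.65 in the LPS comparisons.

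The higher VPS genes were of other complexes. Vps54, a subunit of the GARP tether that receives endosomal vesicles at the Golgi, went from 430 to 1397 and 858 in wild type and from 387 to 1340 and 539 in CD14-deficient cells, with 1283 and 948 under EGTA. It was 3.25-fold and 3.47-fold higher at 6 h, its other probe set gave 1.61 and 1.69, and it rose in the fit at both times (1.65 ± 0.22 and 0.83 ± 0.22, limma adjusted p = 0.0055 and 0.042). Its GARP partners Vps52 and Vps53 stood at -0.01 and -0.19 at 6 h in wild type. Vps37b, an ESCRT-I subunit, went from 127 to 315 and 462 in wild type, from 142 to 261 and 323 in CD14-deficient cells, and stood at 522 and 521 with EGTA. It rose in the fit at both times (1.17 ± 0.21 and 1.45 ± 0.21, limma adjusted p = 0.013 and 0.0081). Vps37c, an alternative to it in the same complex, rose at 6 h (0.81 ± 0.20, limma adjusted p = 0.034). Vps28, the ESCRT-I subunit common to both forms, lay at 0.26 or less in the LPS comparisons. Vps9d1, with a domain found in RAB5 exchange factors, was 2.05-fold higher at 24 h in wild type and stood at 0.98 on the log2 scale in CD14-deficient cells. It rose in the fit at 24 h (0.96 ± 0.15, limma adjusted p = 0.010). The wild-type difference was 0.30 as deposited and 0.72 with the mean of its 3 probe sets, 1 of which was at the floor.

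**Figure D3:**
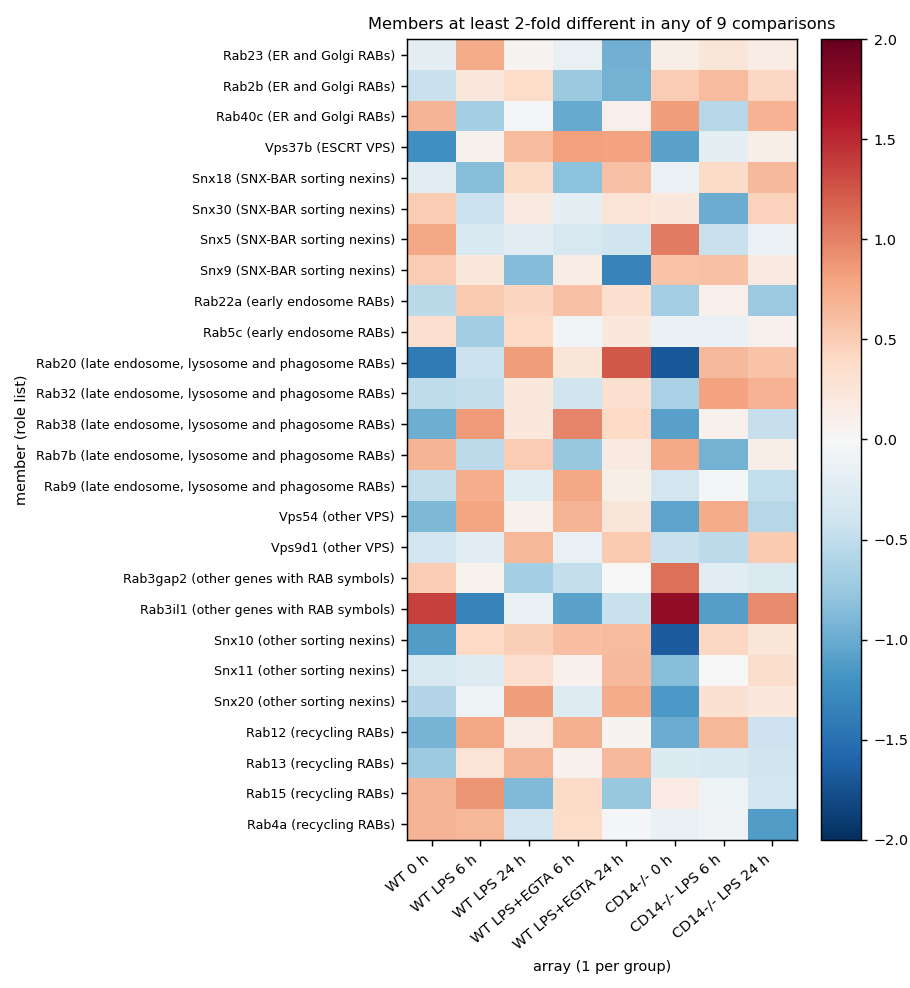
Log2 intensity of each of 26 members minus that member's mean over the 8 arrays (colour, red higher and blue lower), by array (columns) and member with its role list (rows). Members shown are those at least 2-fold different in 1 or more of 9 comparisons; Snx10 and Rab20 are lowest and Rab3il1 highest in the unstimulated columns.

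Promoter sequences were examined for members that were at least 2-fold higher or lower at 6 h in both genotypes, since these moved together in arrays that do not overlap. RefSeq promoters (GRCm38.p6) covered 79 of the 103 members with 103 start sites, and Rab38 and Rab7b were not among them. The 250 bases before each start were searched on both strands for GAAA, any 2 bases and GAAA (the core of the interferon-stimulated response element), GGG, any 5 bases and CC (kappa B), CACGTG (E-box), TGACGTCA (CRE) and TGACTCA (AP-1). The shares of member and of all 32851 promoters were 2.91% and 2.98% for the first, 65.0% and 45.8% for the second, 12.6% and 6.02% for the third, 1.94% and 1.55% for the fourth and 3.88% and 4.46% for the fifth. A match is a description of letters and not a bound site.

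Promoters of members higher at 6 h, each 5′ to 3′ on its gene's strand, are shown in lower case with matches in capitals. Rab12 (chr17:66519671-66519920, minus strand) and Vps54 (chr11:21238782-21239031, plus strand) each hold 1 kappa B core, at 199 to 190 and 192 to 183 bases before the start. For Snx10, 30 bases are given around the AP-1 match before a listed start (chr6:51523974-51524003, plus strand) and around the interferon response core before another start (chr6:51524224-51524253, plus strand). A further Snx10 window, which begins at 51523653, holds no match. The promoters shown here are those to set beside the intensities of Rab12, Vps54 and Snx10 above.
Rab12: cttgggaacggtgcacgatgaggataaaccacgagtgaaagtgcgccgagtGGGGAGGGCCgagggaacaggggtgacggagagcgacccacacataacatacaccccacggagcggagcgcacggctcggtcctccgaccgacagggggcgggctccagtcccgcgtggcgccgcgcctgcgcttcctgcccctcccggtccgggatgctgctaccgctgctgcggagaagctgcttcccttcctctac
Vps54: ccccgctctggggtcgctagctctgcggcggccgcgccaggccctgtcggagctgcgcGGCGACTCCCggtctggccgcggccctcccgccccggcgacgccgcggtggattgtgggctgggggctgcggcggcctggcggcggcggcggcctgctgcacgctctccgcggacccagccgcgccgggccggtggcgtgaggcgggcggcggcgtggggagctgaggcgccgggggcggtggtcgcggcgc
Snx10 AP-1: gccgccgcgcctTGAGTCAgcaaactccgc
Snx10 ISRE: ttttttttttTTTCTCTTTCatgggattgt

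Of the members lower at 6 h, promoters of Snx5 and Rab3il1 follow in the same form, picked because they hold the E-box. What binds there was not tested. Snx5 (chr2:144270573-144270822, minus strand) holds 1 E-box at 50 to 45 bases and 1 kappa B core at 72 to 63 bases before the start. Rab3il1 has several listed starts, and the window shown (chr19:10017944-10018193, plus strand) holds 2 E-boxes, at 42 to 37 and 15 to 10 bases, and 3 kappa B cores. An overlapping window that begins at 10018001 holds the E-box too. Its windows that begin at 10001419, 10001475 and 10014797 hold no E-box. Rab40c has 1 kappa B core and no E-box in its window. Capitals of neighbouring matches are printed where each falls.
Snx5: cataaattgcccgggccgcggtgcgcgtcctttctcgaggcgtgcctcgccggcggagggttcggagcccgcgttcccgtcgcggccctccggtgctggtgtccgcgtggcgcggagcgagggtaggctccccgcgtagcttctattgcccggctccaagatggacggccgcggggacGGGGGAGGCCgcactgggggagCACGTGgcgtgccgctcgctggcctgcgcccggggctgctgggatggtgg
Rab3il1: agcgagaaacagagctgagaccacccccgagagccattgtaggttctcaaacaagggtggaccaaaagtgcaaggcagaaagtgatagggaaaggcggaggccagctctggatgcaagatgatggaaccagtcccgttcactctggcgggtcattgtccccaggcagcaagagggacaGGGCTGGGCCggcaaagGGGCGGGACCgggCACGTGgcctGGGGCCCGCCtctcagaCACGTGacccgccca

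Among the members compared with and without EGTA, Rab2b, Rab23 and Rab29 lay lowest at 6 h and again at 24 h. At 6 h, 0 of 85 members were at least 2-fold higher and 0 lower, beside 0.549% and 0.267% of all genes. At 24 h, 0 of 85 were higher and 2 (2.35%) lower, beside 1.02% and 1.11%. As deposited, 17 members were at least 2-fold lower at 6 h, beside 1353 of 6778 genes and a median of -0.78 over them, and 1 at 24 h, beside 0.645%. The additive EGTA term called 0 members and 0% of all genes in either direction (limma). At an unadjusted limma p under 0.05, 3 of 86 members were higher and 4 lower, beside 213 and 202 of 7292 genes. The comparisons at 6 h and 24 h share no array.

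Rab2b, a RAB of the Golgi, stood at 174 and 194 with LPS and at 90.4 and 78.6 with LPS and EGTA at 6 and 24 h. It was at 111 in unstimulated wild-type cells and between 201 and 233 in CD14-deficient cells, so both EGTA arrays were below all 6 others. The differences were -0.95 and -1.30, and its 4 other probe sets lay between -1.79 and -0.80 at 24 h. The additive effect was -1.003 ± 0.22, with limma adjusted p = 0.70. Rab23, known for restraining hedgehog signalling, stood at 168 and 105 with LPS and at 90.6 and 51.5 with EGTA (-0.89 and -1.02). It was near the comparison level, its other probe set was at the floor on both arrays of 24 h, its 24 h difference was -0.98 with equal medians, -0.84 as deposited and -0.51 with the mean of both probe sets, and its limma adjusted p was 0.79.

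Rab29, a RAB of the Golgi and of stressed lysosomes that recruits the kinase LRRK2, was named after its values were seen. It went from 407 to 774 and 764 in wild type with LPS, and stood at 426 and 406 with LPS and EGTA. In CD14-deficient cells it went from 383 to 500 and 531. The 2 arrays of wild type with LPS alone were thus the highest, and the EGTA arrays lay near the unstimulated one. The EGTA differences were -0.86 and -0.91 and those of CD14 deficiency with LPS -0.63 and -0.52, each taken against the same wild-type LPS array. In the fit, Rab29 rose with LPS at both times (0.67 ± 0.17 and 0.67 ± 0.17, limma adjusted p = 0.036 and 0.037), while its EGTA effect was -0.81 ± 0.17 (limma adjusted p = 0.70) and its CD14 effect -0.41 ± 0.15 (limma adjusted p = 0.23). Vps4a, the ATPase that disassembles ESCRT-III, was also named after its values were seen. It stood at 690 and 696 with LPS and at 486 and 374 with EGTA. Its EGTA differences were -0.51 and -0.90 on the log2 scale, against -0.35 and 0.29 for its paralogue Vps4b. The additive EGTA effect of Vps4a was -0.73 ± 0.16 (limma adjusted p = 0.70).

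**Figure D4:**
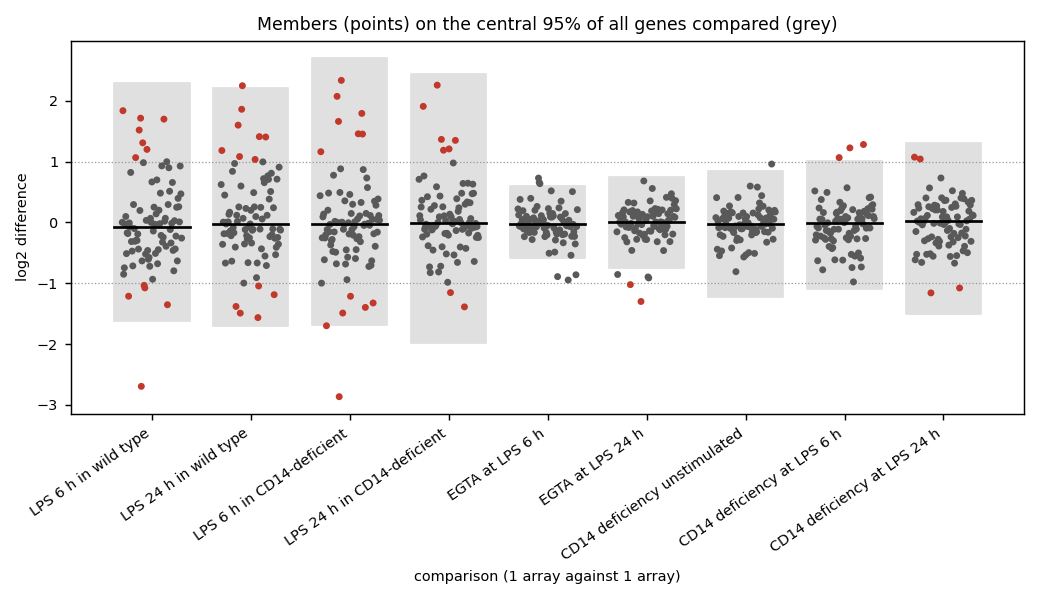
Log2 difference (y axis) of each member compared (points, red where at least 2-fold) in 9 comparisons of 1 array with 1 array (x axis), on the central 95% of all genes compared (grey) with the members' median (black bar). The widest ranges are those with LPS, from -2.87 to 2.34 at 6 h in CD14-deficient cells, and all 9 medians lie between -0.08 and 0.02.

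Before LPS, the genotypes did not differ 2-fold in any of 84 members compared, with 0 higher and 0 lower beside 1.4% and 3.2% of all genes. Rab2b came nearest at 0.96. At 6 h of LPS, Rab32, Snx18 and Rab20 were 2.43-fold, 2.34-fold and 2.09-fold higher in CD14-deficient than in wild-type cells, making 3 of 84 (3.57%) higher and 0 lower, beside 2.53% and 3.08%. As deposited, none of these 3 reached 2-fold (0.97, 1.00 and 0.80), 0 members were higher and 3 lower, beside 1.44% and 6.50% of all genes. With equal medians 3 were higher and 1 lower, beside 2.38% and 3.36%. The other probe set of Snx18 gave 1.39.

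At 24 h of LPS, Rab3il1 and Snx9 were 2.10-fold and 2.06-fold higher and Rab22a and Rab13 2.23-fold and 2.11-fold lower in CD14-deficient cells. These are 2 of 84 (2.38%) in each direction, beside 5.21% and 6.21% of all genes. As deposited 4 members were higher and 0 lower, beside 16.0% and 3.15%, with Rab22a at -0.78 and Rab13 at -0.60. With equal medians 1 was higher and 2 lower, beside 4.81% and 8.05%, with Snx9 at 0.97. Other probe sets gave 0.94 for Snx9, 1.10 for Rab3il1 and -0.46 for Rab22a, whose remaining probe set gave -0.01 at values under the comparison level, and Rab13 had 1 probe set. With the mean of all probe sets, Rab22a stood at -0.55 and Rab13 alone remained at least 2-fold different. All 6 early endosome RABs compared were below 0 at 24 h, from -1.16 to -0.03 with a median of -0.36, beside 0.02 for all genes. The all-gene median was 0.43 as deposited and -0.10 with equal medians, so the sign of small differences depends on scaling. The share of all genes below 0 was not counted. In the additive fit the CD14 term called 0 members in either direction, beside 0.0686% and 0.384% of all genes (limma). At an unadjusted limma p under 0.05, 3 of 86 members were higher and 8 lower, beside 620 and 751 of 7292 genes. Rab4a (-0.76 ± 0.16) and Snx2 (-0.48 ± 0.12), each lower in CD14-deficient cells at every time compared, came nearest, with limma adjusted p = 0.13 and 0.16.

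Regulators, effectors and partners of these genes outside the symbol rule, 78 listed by name with 55 on the array, were within 2-fold in most cases. With LPS at 6 h, 3 of 49 compared were at least 2-fold higher in wild type and 1 in CD14-deficient cells, and 0 were lower in either, against 10.5% and 10.3% of all genes higher and 9.5% and 8.99% lower. At 24 h, 2 were higher and 1 lower in each genotype, against 10.6% and 8.29% of all genes higher and 10.7% and 8.77% lower. Vti1a, a SNARE of endosome to Golgi traffic, was higher and Myo5a, a motor for organelles on actin, lower in both genotypes at 24 h, at 1.27 and 1.09 and at -1.13 and -1.30 on the log2 scale. Dennd1a, an exchange factor for Rab35, was higher in wild type at 1.06 and 1.61 for 6 and 24 h, against 0.06 and 0.46 in CD14-deficient cells. Rilpl2, which binds phosphorylated RABs, was higher in CD14-deficient cells at 1.23 and 1.33, against 0.20 and 0.65 in wild type.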

How the data were processed

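Total RNA of 8 samples was hybridised to Affymetrix GeneChips. The authors deposited 1 linear intensity for each of 22690 probe sets and array, made with MAS5, per the submitters' processing notes; its version, any scaling to a common target, detection calls and the genome build are not given in the sources used here. Starting RNA was 0.3 µg, RNA integrity numbers ran from 9.3 to 9.7 and cRNA yields from 31.4 µg (EGTA, 24 h) to 76 µg (wild type, LPS 6 h), per the labels. The number of arrays limits the precision.

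Intensities were quantile normalized, floored at the 40th percentile and put on the log2 scale (Python 3.11.15, pandas 2.3.3). Of the probe sets, 20393 had 1 gene in the platform annotation, 691 had several and were not used and 1606 were unnamed. Of the 20393, 20364 were matched by gene identifier to RefSeq symbols of GRCm38.p6. Differences of at least 2-fold were counted. Additive fits used limma 3.58.1, on genes above the comparison level on at least 1 array. They were also run on data simulated from the same additive model with independent residuals. That run cannot show how the fit behaves where effects are not additive. Members and lists were chosen with earlier results of these data known. Named genes are up to 5 members a comparison and direction, the widest-ranging member of each role list, up to 5 a term and direction of the fit, and a fixed set of well-known RAB, SNX and VPS genes; others were chosen after their values were seen, namely Rab9, Rab21, Rab29, Snx14, Snx15, Snx30, Vps4a, Vps26c, Vps28, Vps37c, Vps52 and Vps53.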

Additional observations from a re-analysis of the deposited data

How the results depend on the processing

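Counts of members at least 2-fold different depended mainly on scaling and on the fold required. No called difference of a member changed sign with intensities as deposited, equal medians, a floor at the 20th percentile or the mean of all probe sets, and the lower floor and the inclusion of all genes above the floor moved no count by over 1.5 times. As deposited, members higher at 24 h in wild type numbered 3 and lower 12, lower at 24 h in CD14-deficient cells 4, lower with EGTA 17 at 6 h and 1 at 24 h, and higher and lower with CD14 deficiency 0 and 3 at 6 h and 4 and 0 at 24 h. With equal medians, wild type had 11 higher and 2 lower members at 6 h and 15 higher ones at 24 h, 1 was lower with EGTA at 24 h, 1 lower with CD14 deficiency at 6 h and 1 higher at 24 h. With the mean of all probe sets, 1 was lower with EGTA at 24 h, and 0 were higher and 1 lower with CD14 deficiency at 24 h. At 1.5-fold, wild type gave 16 higher and 15 lower members at 6 h, then 20 and 12 at 24 h, 11 and 15 and then 13 and 9 in CD14-deficient cells, 3 and 3 and then 1 and 5 with EGTA, 2 and 1 with CD14 deficiency before LPS, and 8 and 5 lower with it at 6 and 24 h. The matching shares of all genes at 1.5-fold, and with the mean of all probe sets, were not counted. These counts therefore do not tell whether members differ from genes at large. The additive fit called 14 members at 6 h and 13 at 24 h as deposited, and 11 and 8 with the 6 arrays without EGTA, which leaves fewer samples. No paired analysis was possible because each group has 1 array and the labels give no replicate numbers. Dim members near the floor have imprecise folds.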
